A study of Rattus norvegicus with 54 samples.

Results

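The genes described here are the collagen chains other than type VI, the laminin chains, the elastic fibre genes with lysyl oxidase, and the adhesive and matricellular genes Fn1, Sparc, Postn, Tnc and Ctgf of rat lung and right ventricle. They were taken by symbol: Col followed by chain numbers without Col6, then Lox, Fbn, Fbln, Lama, Lamb or Lamc with at most digits after the stem, Eln, and those 5 single genes. The rule found 41 of 12998 genes, 40 in the lung table of 12650 genes and 41 in the right ventricle table of 12199, since Col9a1 was listed only for right ventricle. By role they were 9 fibrillar collagen chains, 5 network-forming and anchoring chains, 4 fibril-associated chains, 5 transmembrane, multiplexin and other chains, 7 laminin chains, 6 elastic fibre genes with Lox, and 5 adhesive and matricellular genes.

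RNA-seq compared Sprague Dawley rats that had spent gestation and life to 6 weeks of age either in room air (RA-RA) or in a hypobaric chamber set to 9000 feet, equal to breathing 15% oxygen (H-H). Parents entered their condition at 7 weeks and bred at 10 weeks, pups were weaned on day 21, and no group carried an engineered allele. Lung had 15 room air libraries (7 from males) and 14 altitude libraries (7 from males), and right ventricle had 11 (5 from males) and 14 (7 from males). Each condition came from 2 litters, 4RARA and 6RARA in room air and 3HH and 4HH at altitude, so that litter lay wholly within exposure and the exposure and its litters cannot be told apart; littermates counted as replicates in every p-value given here.

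Fibrillar collagens assemble into the tension-bearing cables of vessel walls, septa and myocardium, and fibril-associated chains decorate them. Type IV chains and laminins build basement membranes under epithelium and endothelium and around muscle cells, while elastin on a fibrillin and fibulin scaffold, crosslinked by lysyl oxidase, gives lung and great vessels their recoil. Matricellular proteins such as SPARC, periostin, tenascin-C and CTGF modulate cells and fibrils rather than bear load, and matrix remodelling is a known feature of pulmonary hypertension and of the pressure-loaded right ventricle.

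The libraries held 1028679 to 23902634 counts in lung and 6116006 to 16326512 in right ventricle. The defining lung epithelial gene Sftpc reached 7825 to 37960 CPM (counts scaled to the library total, with trimmed mean of M values factors) across lung litters, and the cardiac myosin gene Myh6 reached 5060 to 27110 CPM in right ventricle. Across the tissues 9 libraries stood apart, 4 in lung (4HH37, 4HH39, 6RARA66 and 6RARA68) and 5 in right ventricle (4HH37 and all 4 of litter 6RARA), and results at altitude are given without them where that changed a call, a direction or a value by a wide margin. Animal 4HH37 had 4002 CPM of Myh6 in lung and 5984 CPM of Sftpc in right ventricle, and lung 6RARA66 had the lowest total and 59.2% intergenic reads. The 6RARA right ventricles had RNA integrity numbers (RIN) of 5.8 to 7.4 with 17.3 to 22.5% intergenic reads. Right ventricle RIN was 6.5 to 9.6 in 4RARA, 5.9 to 8.4 in 3HH and 7.7 to 8.6 in 4HH. Intergenic reads were 9.3 to 12.3%, 10.8 to 14.8% and 9.6 to 14.6% in the same order. The RIN of 6RARA thus overlapped that of 4RARA and 3HH, and its intergenic share overlapped none of these litters. In lung 4HH39, 36 of 39 members lay more than 1 log2 unit below their tissue median (26.4% of all genes), and the difference fell with gene length over all 12115 genes (Spearman's rho −0.662, a description within 1 library). In lung 6RARA68, 21 of 39 members did (19.2% of all genes), with a RIN of 8.5 and 20.3% intergenic reads. The 9 libraries were set by name and not by a stated threshold. For lung 4HH39 and 6RARA68 the features given include low levels of the members themselves. Fits without the 9 libraries are therefore a description and no independent check on the calls.

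**Figure D1:**
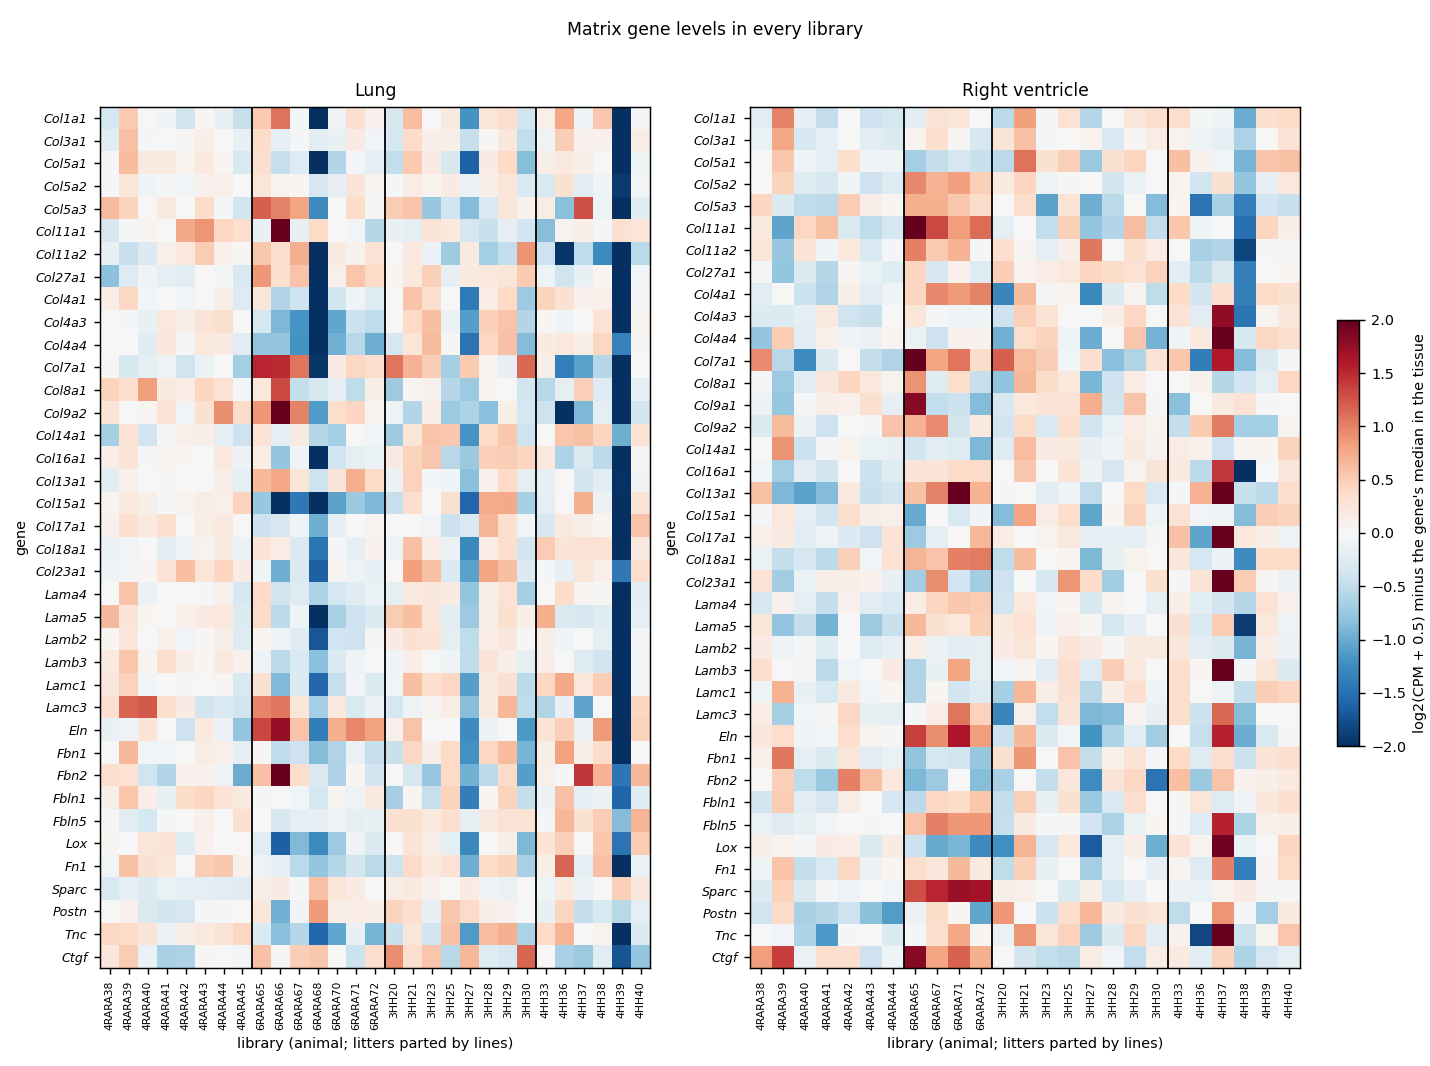
Each cell is a library's level of a gene on the log2 scale minus that gene's median in the tissue, with lung libraries left, right ventricle libraries right, litters parted by lines and Col1a2 and 1 member not reported here left out. The blue column of lung 4HH39, the blue cells of lung 6RARA68 and the red Sparc and Eln cells of the 4 right ventricle 6RARA libraries stand out, and no column block separates altitude from room air.

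Promoter sequences are shown for the 1 member called at altitude and for a pair of type IV collagen genes that lie head to head and were lower together in one room air litter. RefSeq windows (GRCr8) matched 32 of 41 members, 31 by symbol and Ctgf by its synonym Ccn2, and the 250 bases before each start are printed 5′ to 3′ on the gene's strand. In the Ctgf window, chr1:22624615-22624864 (minus strand), capitals mark GGAATG, the letters of the site read by TEAD factors; read on both strands (as GGAATG or CATTCC), it occurred 3 times there, 160, 95 and 86 bases before the start.
Ctgf: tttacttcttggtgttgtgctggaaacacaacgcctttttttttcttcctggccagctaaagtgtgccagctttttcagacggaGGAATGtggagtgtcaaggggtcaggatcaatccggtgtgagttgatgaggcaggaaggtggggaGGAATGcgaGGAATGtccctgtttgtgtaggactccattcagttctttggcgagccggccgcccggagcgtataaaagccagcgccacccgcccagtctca
At least 1 such match stood in 4037 of 33469 windows (12.1%) and in 6 of the 32 member windows, and at least 3 in 27 of all windows (0.0807%). A match is a description of letters and no evidence of binding. In the windows of Col4a3, chr9:91323740-91323989 (plus strand), and Col4a4, chr9:91323578-91323827 (minus strand), capitals mark the 88 bases that both windows hold, read on opposite strands; the starts of the genes lie 413 bases apart.
Col4a3: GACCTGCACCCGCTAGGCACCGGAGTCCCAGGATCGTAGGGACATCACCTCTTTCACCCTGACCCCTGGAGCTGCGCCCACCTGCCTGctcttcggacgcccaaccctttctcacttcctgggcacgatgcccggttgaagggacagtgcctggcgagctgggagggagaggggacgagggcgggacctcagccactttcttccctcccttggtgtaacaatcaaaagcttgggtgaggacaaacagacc
Col4a4: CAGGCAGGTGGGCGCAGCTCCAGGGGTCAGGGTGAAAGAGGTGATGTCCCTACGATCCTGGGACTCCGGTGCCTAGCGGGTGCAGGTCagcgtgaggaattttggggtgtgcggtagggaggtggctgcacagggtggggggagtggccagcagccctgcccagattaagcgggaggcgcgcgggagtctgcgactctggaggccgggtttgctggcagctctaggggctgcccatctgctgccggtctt
The GC box GGGCGG, read on both strands with CCGCCC, occurred once in the Col4a3 window and not in the Col4a4 window, against 30.5% of all windows with at least 1.

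In room air lung and right ventricle differed in the level of most of these genes, some being higher in lung and others in right ventricle. Of 39 members tested, 33 (84.6%) were called in the edgeR quasi-likelihood test at an adjusted p under 0.05, 20 higher in lung and 13 higher in right ventricle, where 67.3% of all 11622 genes were called (32.1% higher in lung and 35.2% lower). The groups' ranges of CPM did not overlap for 14 members, against 18.5% of all genes. The animal entered as a replicate block gave 34 members, Col1a1 being added, where 8445 of 11552 genes were called. Leaving out the libraries that stood apart gave 35 (Col4a1 at 0.54 and Sparc at 0.35 added, both higher in lung), where 78.4% of genes were called.

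Levels of different genes are compared as CPM per kilobase of the deposited gene length. In lung of room air animals, Sparc, a collagen-binding matricellular protein, stood highest at 2778 ± 536 CPM per kilobase (SD, n = 15). Elastin, the rubber-like core of elastic fibres, followed at 748 ± 432, with 1 library, 6RARA66, at 7418 CPM against a room air median of 2537 CPM. Col3a1, the single chain of the reticular type III collagen, was at 565 ± 93 CPM per kilobase and led the fibrillar chains. Elastin and Col3a1 do not differ in this order beyond their spread over lung libraries. Col4a1, the main basement membrane collagen chain, was at 272 ± 75, Lamb2, a laminin beta chain of vessel and muscle basement membranes, at 74.4 ± 16.7, Col13a1, a transmembrane collagen, at 37.4 ± 9.6, and Col16a1, a fibril-associated chain, at 27.4 ± 7.2 CPM per kilobase.

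In right ventricle the order was led by Sparc at 3701 ± 2224 CPM per kilobase (SD, n = 11), a spread set by the 6RARA libraries described below. Col3a1 was at 820 ± 213, Col4a1 at 290 ± 118, Eln at 191 ± 90 and Lamb2 at 176 ± 18 CPM per kilobase. Eln and Lamb2 lay within each other's spread. The leading member of the multiplexin and transmembrane group was Col15a1, of muscle and capillary basement membranes, at 54.9 ± 11.9, and that of the fibril-associated chains was Col14a1, a fibril-surface collagen, at 29.3 ± 10.0 CPM per kilobase.

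The 4 members with the smallest p among those higher in lung are given first, in an order that is not one of size. Lamb3, a chain of the epithelial laminin-332, was 4.19 ± 0.17 higher on the log2 scale (SE, adjusted p = 6.2e-18), Col17a1, the hemidesmosomal collagen, 2.85 ± 0.17 (adjusted p = 1.01e-14), Col23a1, a transmembrane collagen, 5.33 ± 0.34 (adjusted p = 8.53e-14) and Col13a1 4.63 ± 0.33 (adjusted p = 7.89e-13). None of these 4 overlapped between the tissues in room air. Toward right ventricle the 4 with the smallest p were Col5a3, a minor type V fibrillar chain, at −3.94 ± 0.22 (adjusted p = 2.98e-15), Col14a1 at −1.57 ± 0.15 (adjusted p = 2.21e-10), Col8a1, a short-chain network collagen, at −1.93 ± 0.19 (adjusted p = 5.94e-10) and Lamb2 at −1.25 ± 0.14 (adjusted p = 4.59e-09), while Fbn2 differed in that direction by more than all but Col5a3, at −2.66 ± 0.40. Of the 8 fibrillar chains tested, 5 were higher in right ventricle, among them Col3a1 (−0.54 ± 0.13, adjusted p = 0.000613), and 1, Col5a2, in lung. Lox, the enzyme that crosslinks collagen and elastin (2.62 ± 0.22), Eln (1.96 ± 0.30), Postn (2.21 ± 0.19), Tnc (3.26 ± 0.24) and Fn1 (1.31 ± 0.17) were higher in lung, as was Ctgf (0.71 ± 0.20). The 6 members not called were Col1a1, Col11a1, Col4a1, Fbn1, Fbln1 and Sparc. In bulk tissue, fewer cells of a type and less RNA per cell cannot be told apart.

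**Figure D2:**
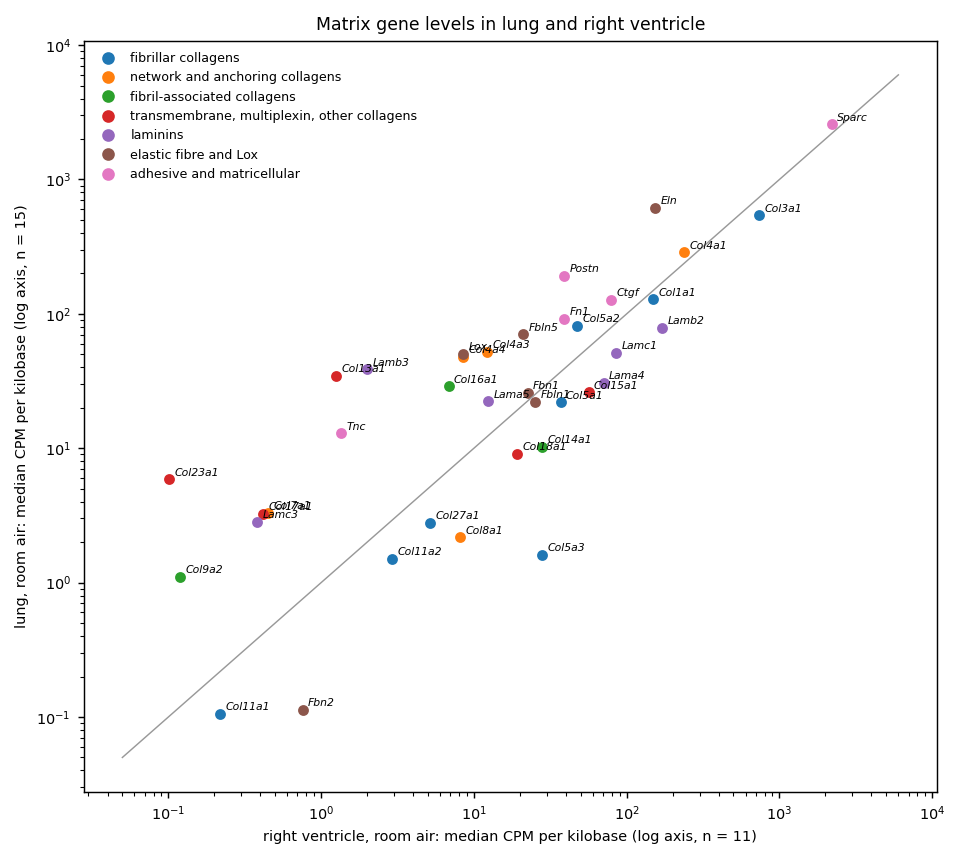
Each point is a gene, placed by its median CPM per kilobase in room air right ventricle (x axis, log, n = 11) and lung (y axis, log, n = 15), coloured by role, with the line of equal level. Col23a1, Col13a1, Lamb3 and Tnc lie far above the line, Col5a3 lies far below it, and Sparc and Col3a1 are at the upper right.

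Col1a2, the second chain of type I collagen, had 0 to 12 counts in any lung library (0 to 5.54 CPM) and 0 to 7 in any right ventricle library (0 to 1.30 CPM), while its partner Col1a1 had 830 to 25034 and 3201 to 18905 counts. The annotation in the deposited table (rn6, chromosome 4) lists the same 52 exons of Col1a2 at 29529854–29564781 and again at 31534225–31569152, offset by 2004371 bases, and none of the other 39 members in the lung table was listed at 2 places. Its level was therefore not read as an abundance. Col1a2, Col9a1, Col9a2 and Col23a1 were below the count filter in right ventricle, and Col1a2 in lung. The Col4a4 model holds 7 exons and 1152 bases, against 5020 bases for Col4a3, which affects its level per length but no comparison between libraries.

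At altitude no matrix gene was called in lung. The count was 0 of 39 members in edgeR's quasi-likelihood test, where 2.00% of 12115 genes were called; 6 members (15.4%) had an unadjusted p under 0.05, against 13.4% of all genes, and DESeq2 called 1, Col9a2, where it called 3.76% of all genes. Leaving out litter 4RARA called 2, Col15a1 and Col4a4, where 10.0% of genes were called; leaving out 6RARA called none (1.78% of genes), as did batch number as a covariate (1.29%). The members' median log2 fold change was 0.02, equal to that of all genes at 0.02, with 20 positive, 19 negative and a median SE of 0.22.

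The main fibrillar chains differed by less than the spread between lung libraries. Col1a1 CPM ran from 206 through a median of 849 to 1859 in room air and from 60.04 through 906 to 1500 at altitude (log2 difference −0.02 ± 0.28, SE, adjusted p = 0.991). Col3a1 ran from 2554 through 2919 to 4496 and from 661 through 3188 to 4221 CPM (−0.07 ± 0.16, adjusted p = 0.926). In both the altitude range enclosed or overlapped the room air range, and the altitude minimum of each was library 4HH39. All 8 fibrillar chains tested had negative estimates, with a median of −0.09 and none called.

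No basement membrane or elastic fibre gene passed the test. Col4a1 gave 0.11 ± 0.27 (adjusted p = 0.926), with a room air range of 538 to 3000 CPM and an altitude range of 118 to 3346 CPM. Eln gave −0.44 ± 0.29 (adjusted p = 0.57), from 852 through 2537 to 7418 CPM in room air and 434 through 2216 to 4005 CPM at altitude; without litter 6RARA its estimate was 0.11, and without the libraries that stood apart −0.25. Fbn1, the microfibril scaffold, gave 0.18 ± 0.22 and Lox 0.21 ± 0.20 (adjusted p = 0.814 and 0.729). None of the 7 laminin chains was called, with a median of 0.03. Of the adhesive genes, Fn1 gave 0.09 ± 0.24, Sparc 0.10 ± 0.10, Postn 0.07 ± 0.14, Tnc 0.16 ± 0.25 and Ctgf −0.08 ± 0.22, each with an adjusted p between 0.757 and 0.934. Without the libraries that stood apart Ctgf turned to 0.10 and Col1a1 to 0.11 (adjusted p = 0.835 and 0.75).

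A pair of lung genes moved with the choice of libraries and are described because of that, having been chosen after their values were seen. Fbln5, fibulin-5, which tethers elastic fibres to cells, ran from 156 through 189 to 247 CPM in room air and from 109 through 246 to 320 CPM at altitude. Its fold change of 0.33 ± 0.11 had an adjusted p of 0.125 with all libraries. It became 0.36 with an adjusted p of 0.0131 without the libraries that stood apart, where 3.71% of all genes were called. Library 4HH39, left out of that fit, held the altitude minimum of Fbln5. Col9a2, a cartilage-type fibril-associated chain, ran from 1.06 through 3.73 to 15.7 CPM in room air and from 0.0613 through 1.93 to 3.32 CPM at altitude, −1.20 ± 0.34 with an adjusted p of 0.0575. Without those libraries it was −0.99 (adjusted p = 0.0247), and with DESeq2 −1.24 (adjusted p = 0.00611). In the authors' deposited table, 2 members had a false discovery rate under 0.05 in lung, Col9a2 (0.002) and Fbln5 (0.0112), where 5.87% of 12650 genes did.

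Beside Col9a2, 4 of 10 listed cartilage markers were in the lung table, and their summed CPM was 9.66 to 26.5 in 4RARA, 8.45 to 48 in 6RARA, 4.32 to 10.2 in 3HH and 3.04 to 7.81 in 4HH. Of the 3 tested, 1 was lower, the chondrocyte factor Sox9 (−1.45, adjusted p = 0.00226), at 6.74 to 36.9 CPM in room air and 1.16 to 7.22 at altitude. Another of the 3 had a positive estimate. Sox9 made up most of the sum, with medians of 11.7, 9.78, 5.57 and 3.68 CPM in 4RARA, 6RARA, 3HH and 4HH. In the same order, the medians of the cartilage matrix gene Comp were 0.742, 1.26, 1.51 and 1.09 CPM. Those of Chad were 0.775, 0.447, 0.645 and 0.438 CPM. In library 6RARA66 Col9a2, Col11a1 and Sox9 all had their room air maximum, at 15.7, 30.5 and 36.9 CPM. The part of cartilage in the Col9a2 difference was not tested.

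**Figure D3:**
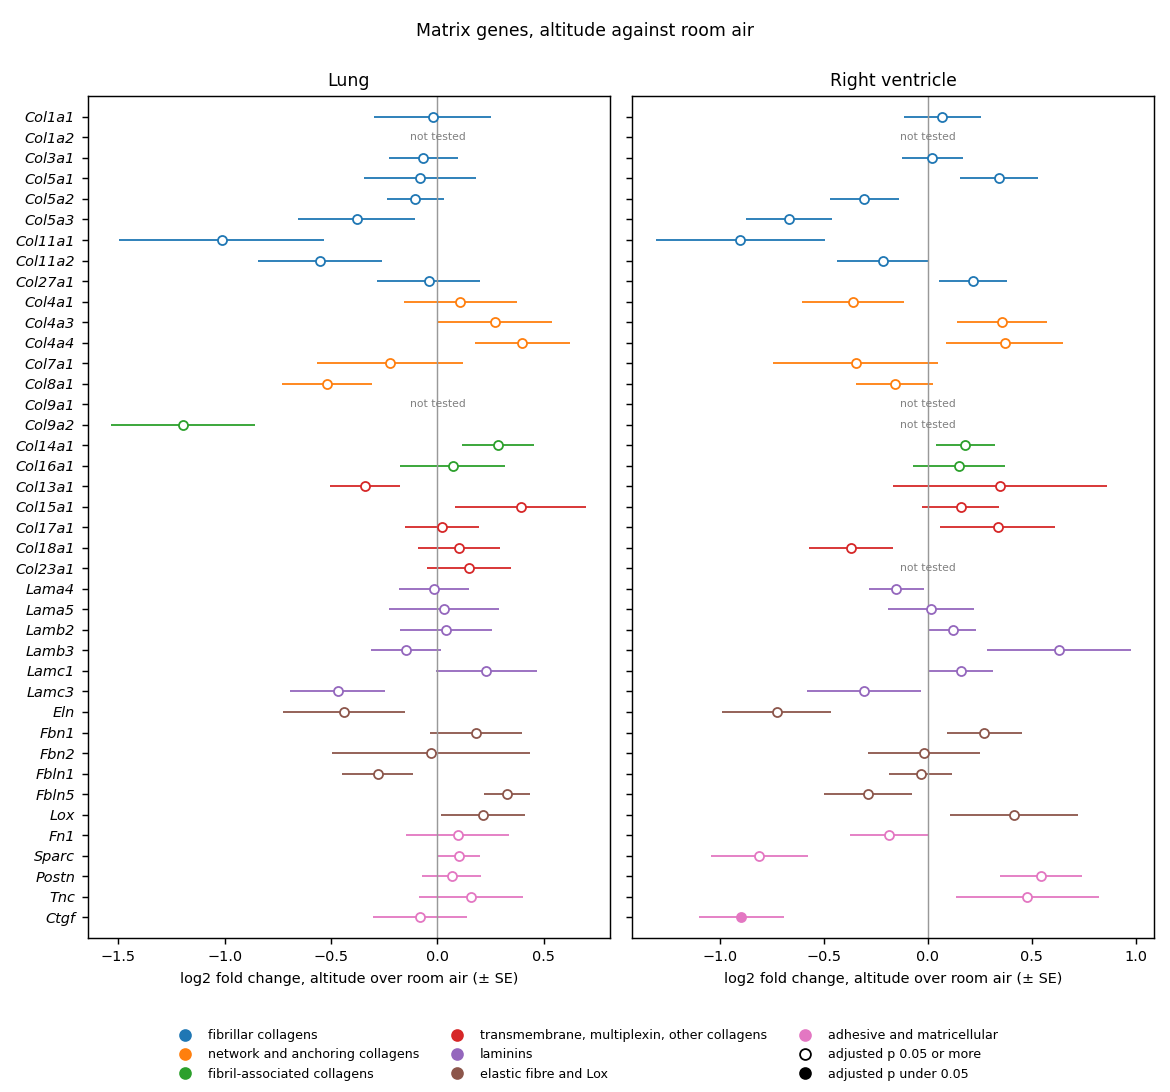
Points are log2 fold changes of altitude over room air with SE bars (x axis) for each gene (y axis), lung left and right ventricle right, coloured by role and filled where the adjusted p was under 0.05. The single filled point is Ctgf in right ventricle at −0.90, and most bars cross 0.

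In right ventricle, Ctgf was lower at altitude and was the only member called. It encodes connective tissue growth factor, a matricellular protein induced by TGF-beta and by mechanical load, and lies on chromosome 1 from 21851658 to 21854773 (minus strand, rn6). Its CPM ran from 72.04 through a median of 158 to 343 in room air and from 62.9 through 84.0 to 131 at altitude. The groups overlapped, with the altitude maximum below the room air median. The fold change was −0.90 ± 0.21 on the log2 scale (SE, n = 11 and 14, adjusted p = 0.0256 in edgeR), 1 of 37 members (2.70%), where 3.04% of 11298 genes were called and 2.20% were called lower. In the authors' deposited table Ctgf had a log2 fold change of −0.77 and a false discovery rate of 0.00152.

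The room air litters differed in Ctgf. The 4 room air libraries of 6RARA had 343, 168, 219 and 158 CPM of Ctgf, the 7 of 4RARA ran from 72.04 through 122 to 252, and the altitude litters ran from 66.2 through 84.0 to 108 (3HH, n = 8) and from 62.9 through 84.0 to 131 (4HH, n = 6). All 4 of the 6RARA libraries lay above every altitude library, and the 4RARA range overlapped both altitude litters. Without the libraries that stood apart the estimate was −0.61 with an adjusted p of 0.194, and without litter 6RARA −0.56 with 0.352. Without 3HH it was −0.82 (adjusted p = 0.391), without 4HH −0.93 (0.0853) and without 4RARA −1.36 (5.9e-06). With litter as a random effect in limma the adjusted p was 0.751, and with RIN as a covariate 0.0581. Within the 3 batches numbered in the sequencing core's run sheet, whose kind it does not state, the mean log2 difference was −0.81 (4 altitude against 6 room air libraries), −1.001 (6 against 4) and −0.12 (4 against 1), and batch as a covariate gave −0.84 with an adjusted p of 0.0854.

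No other matrix gene of the right ventricle passed the test. Sparc ran from 3096 through 3743 to 12257 CPM in room air and from 2938 through 3781 to 4188 CPM at altitude (−0.81 ± 0.23, adjusted p = 0.055), and gave −0.02 without the libraries that stood apart. The medians of Sparc were nearly equal, and the difference in its estimate lay in the 4 libraries of 6RARA. Eln ran from 357 through 474 to 1146 CPM and from 164 through 308 to 1091 CPM (−0.73 ± 0.26, adjusted p = 0.114), its altitude maximum being library 4HH37. Without that animal Eln was called at −0.94, an alternative chosen after seeing the data, and without all the libraries that stood apart it was −0.42 with an adjusted p of 0.404. Postn, periostin of activated fibroblasts, was the adhesive gene with the most positive estimate, from 64.6 through 105 to 184 CPM in room air and 87.6 through 159 to 260 CPM at altitude (0.54 ± 0.20, adjusted p = 0.114). It gave 0.62 with an adjusted p of 0.224 without the libraries that stood apart. Within the 3 batches Postn gave 0.36 (4 altitude against 6 room air libraries), 0.55 (6 against 4) and 1.42 (4 against 1). That 1 room air library, at 64.6 CPM, was the room air minimum.

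The type I and type III chains of the ventricle differed by less than their error. Col1a1 ran from 596 through 734 to 1645 CPM in room air and from 415 through 902 to 1452 CPM at altitude (0.07 ± 0.18, adjusted p = 0.84). Col3a1 ran from 2607 through 2979 to 5611 and from 2099 through 3320 to 4901 CPM (0.02 ± 0.15, adjusted p = 0.937). The room air maximum of both was animal 4RARA39. Of the other fibrillar chains, Col11a1 gave −0.90 ± 0.41 (adjusted p = 0.205), Col5a1 0.34 ± 0.19 and Col5a2 −0.30 ± 0.17 (both adjusted p = 0.302), and without the libraries that stood apart these were 0.05, 0.18 and 0.05. Col4a1 gave −0.36 ± 0.24, Fbn1 0.27 ± 0.18, Lox 0.41 ± 0.31, Fn1 −0.19 ± 0.19 and Tnc 0.48 ± 0.34, with adjusted p between 0.389 and 0.57. With the libraries that stood apart left out, Col4a1 turned to 0.07 and Lox to −0.13, and Fbn1 was 0.04, Fn1 −0.17 and Tnc 0.34. The members' median was 0.02, as that of all genes was, and 7 (18.9%) had an unadjusted p under 0.05 against 20.7% of all genes.

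Which members were called in right ventricle turned on the fit. DESeq2 called 4, among them Ctgf, Sparc and Col5a3 (−0.67 ± 0.21 in edgeR), where it called 7.39% of all genes. Without litter 4RARA, whose removal left 6RARA as the only room air litter, 15 were called, where 55.6% of all genes were. Without the libraries that stood apart none was called, where 0.300% of genes were, and the same held without litter 6RARA (0.158% of genes) and with batch number as a covariate (0.204%). The authors' deposited table had a false discovery rate under 0.05 for 5 members in right ventricle, among them Ctgf, Eln, Col5a3 and Postn, where 4.02% of 12199 genes did. Col5a3 is named for those calls, after its values were seen.

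Markers of other cell types also differed in the right ventricle comparison. All 11 cardiac muscle markers tested had positive estimates at altitude (median 0.52), and Nppa was called at 1.73. Without the libraries that stood apart 8 were positive (median 0.12) and none was called. Sox9 of the cartilage list and Wt1 of the mesothelial list were lower (−1.17 and −0.92), and neither was called without those libraries. Of 8 endothelial markers 3 were lower at altitude (Emcn, Pecam1 and Tek), none without the libraries that stood apart, and the summed level of the 8 was 3818 to 4588 CPM in 6RARA, 1547 to 2006 in 4RARA, 1199 to 1912 in 3HH and 1417 to 2074 in 4HH. None of the 10 smooth muscle and pericyte markers was called, with a median of −0.78 in the full fit and −0.04 without those libraries. Between the room air litters 7 of these 10 were higher in 6RARA and 2 lower. Their summed level went the other way, at 2072 to 2586 CPM in 6RARA and 3833 to 5595 in 4RARA. It was 3455 to 5002 CPM in 3HH and 2980 to 8291 in 4HH. The summed fibroblast markers spanned 1733 to 2028 CPM in 6RARA and 1732 to 2790 in 4RARA, and 1401 to 2166 and 1151 to 2444 in 3HH and 4HH. Their part in the Ctgf, Sparc and Eln values was not tested.

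The altitude difference was not shown to differ between lung and right ventricle for any member. In the interaction test 0 of 39 were called in edgeR's quasi-likelihood fit, where 1.01% of 11744 genes were; 5 (12.8%) had an unadjusted p under 0.05, against 12.3% of all genes. Sparc gave a lung minus right ventricle difference of 0.90 ± 0.24 (adjusted p = 0.0527), called by DESeq2 (adjusted p = 0.0148), and 0.14 (adjusted p = 0.689) without the libraries that stood apart, where 0.408% of genes and no member were called. Ctgf gave 0.81 ± 0.31 (adjusted p = 0.216) and Fbln5 0.62 ± 0.22 (adjusted p = 0.179).

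Males and females were not told apart in these genes. In lung 0 of 39 members were called in edgeR, where 0.0330% of genes were, with 1 member at an unadjusted p under 0.05 (2.56%, against 3.88% of all genes). In right ventricle 0 of 37 were called, where 0.0443% of genes were, with 4 at that level (10.8%, against 6.41% of all genes). These were Col13a1, Col17a1, Lamb3 and Tnc, named after their values were seen, each with its maximum at altitude in the male library 4HH37; without the libraries that stood apart Col13a1 went from 1.14 to −0.14 and Lamb3 from 0.76 to −0.05. DESeq2 was not run for sex.

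Between litters of one exposure, members were called in room air and not at altitude. The 2 altitude litters gave no call in edgeR: 0 of 39 members in lung, where 0.741% of genes were called, and 0 of 38 in right ventricle, where 0.0531% were, each with 4 members at an unadjusted p under 0.05 (16.3% of all genes in lung and 14.3% in right ventricle were at that level). In lung Ctgf ran from 226 through 456 to 743 CPM in 3HH and from 100 through 208 to 333 CPM in 4HH, −0.99 ± 0.25 (adjusted p = 0.0986). The 4HH minimum was library 4HH39, and without the libraries that stood apart the estimate was −0.77 (adjusted p = 0.17). With all libraries it was larger in size than the altitude estimate of Ctgf in lung, and within its SE of that in right ventricle. In right ventricle 1 member did not overlap between these litters, against 0.726% of genes: Col27a1, a minor fibrillar chain noted after its values were seen, at 30.3 to 40.8 CPM in 3HH and 10.9 to 29.7 CPM in 4HH (−0.65 ± 0.17, adjusted p = 0.134).

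In lung of room air animals 14 of 39 members (35.9%) were called between 6RARA and 4RARA, where 31.3% of 12124 genes were, 4 higher and 10 lower in 6RARA against 15.6% of genes in each direction. Col15a1 was lowest relative to 4RARA: 19.8 through 74.1 to 92.5 CPM in 6RARA (n = 7) against 153 through 168 to 214 CPM in 4RARA (n = 8), −1.43 ± 0.25 (adjusted p = 0.000554). Col4a4, of the alpha3-alpha4-alpha5 collagen IV network of alveolar and glomerular basement membranes, ran from 15.5 through 38.3 to 50.7 against 63.1 through 74.7 to 87.3 CPM (−1.03 ± 0.18, adjusted p = 0.000635). Its head-to-head neighbour Col4a3, whose window is printed above and which was chosen after its values were seen, ran from 52.7 through 176 to 258 against 298 through 347 to 411 CPM (−0.95 ± 0.23, adjusted p = 0.00516). In each of these 3 genes every 6RARA lung lay below every 4RARA lung. The same held for Tnc (−0.94 ± 0.18, adjusted p = 0.001), for Fn1 (−0.71 ± 0.14, adjusted p = 0.00137) and for Lamb3 (−0.48 ± 0.13). Sparc was the member that did not overlap in the other direction, 6380 through 7210 to 9709 against 5247 through 5569 to 5917 CPM (0.41 ± 0.11, adjusted p = 0.0126). These 7 non-overlapping members of 39 stand beside 12.9% of all genes.

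Eln (1.00 ± 0.30, adjusted p = 0.0192), Col13a1 (0.44 ± 0.15) and Col7a1, the anchoring fibril collagen (0.89 ± 0.33), were also higher in 6RARA lungs, while Lox (−0.68 ± 0.19) and Fbn1 (−0.49 ± 0.15) were lower. No fibrillar chain of the 8 tested was called with all libraries. Without the libraries that stood apart 17 members were called, among them the fibrillar chains Col11a1 and Col27a1, where 41.7% of genes were. Beside these values, 3 of 4 mesothelial and 3 of 10 fibroblast markers were higher in 6RARA lungs and none lower. Of 10 smooth muscle and pericyte markers 4 were higher and 1 lower, of 8 endothelial 1 and 2, and of 10 lung epithelial 2 and 2. Macrophage markers were lower in 5 of 7. Their summed level was 16849 to 50469 CPM in 6RARA (median 22966) and 18596 to 23744 in 4RARA (median 21340). Of the other lists, cartilage had 1 of 3 higher, liver 1 of 5 lower and proliferating cells 1 of 7 lower. The part of these lists was not tested.

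**Figure D4:**
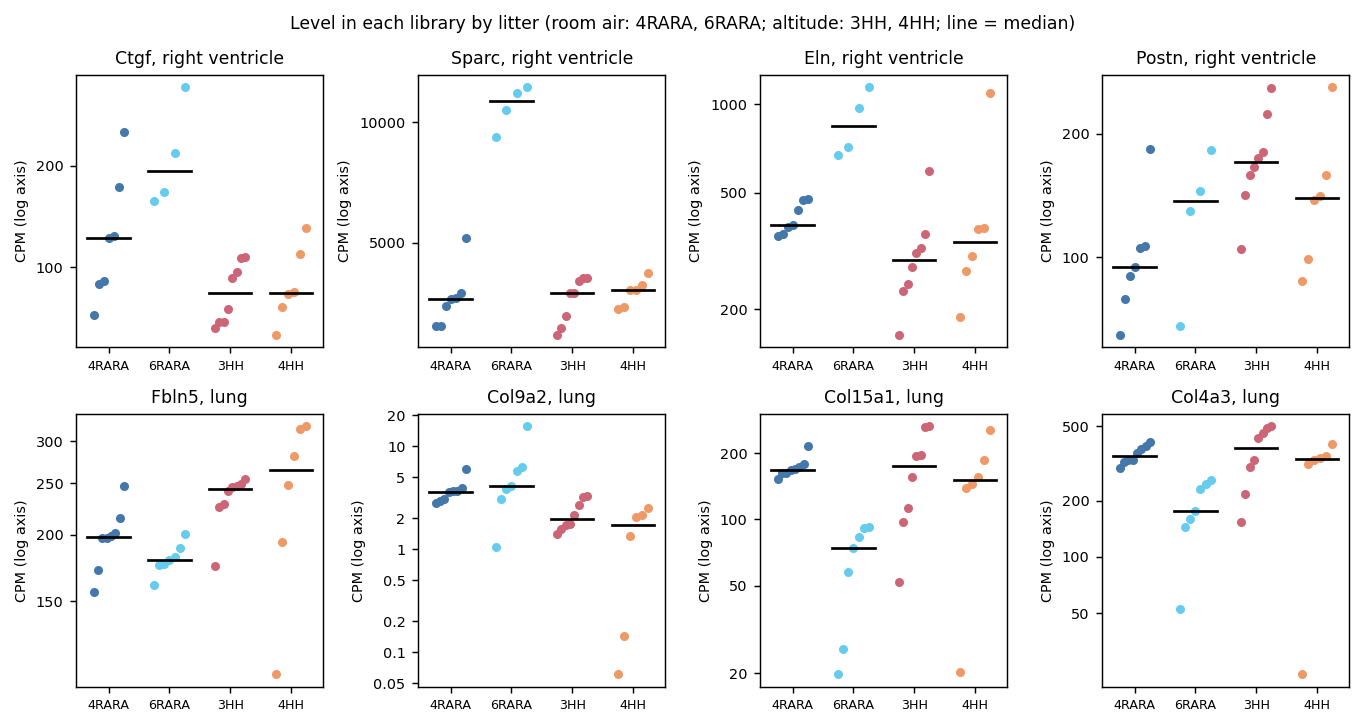
Each dot is a library's CPM (log axis) by litter, room air litters 4RARA and 6RARA and altitude litters 3HH and 4HH, with the median as a line, for Ctgf, Sparc, Eln and Postn in right ventricle and Fbln5, Col9a2, Col15a1 and Col4a3 in lung. The 4 right ventricle 6RARA libraries lie at 9184.5 to 12257 CPM of Sparc, the other 3 litters at 2938 to 5150, and the 6RARA lungs lie below the 4RARA lungs for Col15a1 and Col4a3.

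In right ventricle 21 of 37 members (56.8%) were called between the room air litters, 16 higher and 5 lower in 6RARA, where 64.6% of 11407 genes were (33.1% higher and 31.5% lower), so that the share of matrix genes was no larger than that of all genes. Sparc was 9184.5, 10754, 12257 and 11838 CPM in the 4 libraries of 6RARA and 3096 through 3615 to 5150 CPM in the 7 of 4RARA (1.61 ± 0.15, adjusted p = 3.24e-07). Fbln5 was 62.7, 84.8, 76.7 and 77.0 CPM against 35.1 through 40.1 to 42.7 CPM (0.96 ± 0.10, adjusted p = 6.19e-07). Neither gene overlapped between these litters. Col18a1, the basement membrane collagen from which endostatin is cut, was 107, 98.8, 134 and 138 CPM against 46.1 through 60.95 to 92.9 (0.93 ± 0.11, adjusted p = 4.07e-06). Eln was 969, 718, 1146 and 670 CPM against 357 through 389 to 476 (1.13 ± 0.15, adjusted p = 9.26e-06). Col4a1, at 1815, 2605, 2420 and 2671 CPM against 881 through 1158 to 1456 CPM, was 1.04 ± 0.14 higher. These 3 did not overlap either.

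Among the members lower in 6RARA right ventricles was Lox, at 9.43, 6.17, 6.64 and 5.06 CPM against 10.4 through 14.0 to 14.5 CPM in 4RARA (−0.93 ± 0.17, adjusted p = 0.000192). Col5a1, the main type V chain that starts fibrils, was 115, 133, 145 and 136 CPM (−0.53 ± 0.15, adjusted p = 0.00578). Fbn2, the fibrillin of development, was 2.79, 3.20, 5.55 and 2.87 CPM (−0.86 ± 0.28, adjusted p = 0.0155), and it overlapped between litters where Lox and Col5a1 did not. In all, 14 of 37 members did not overlap, against 46.5% of all genes.

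**Figure D5:**
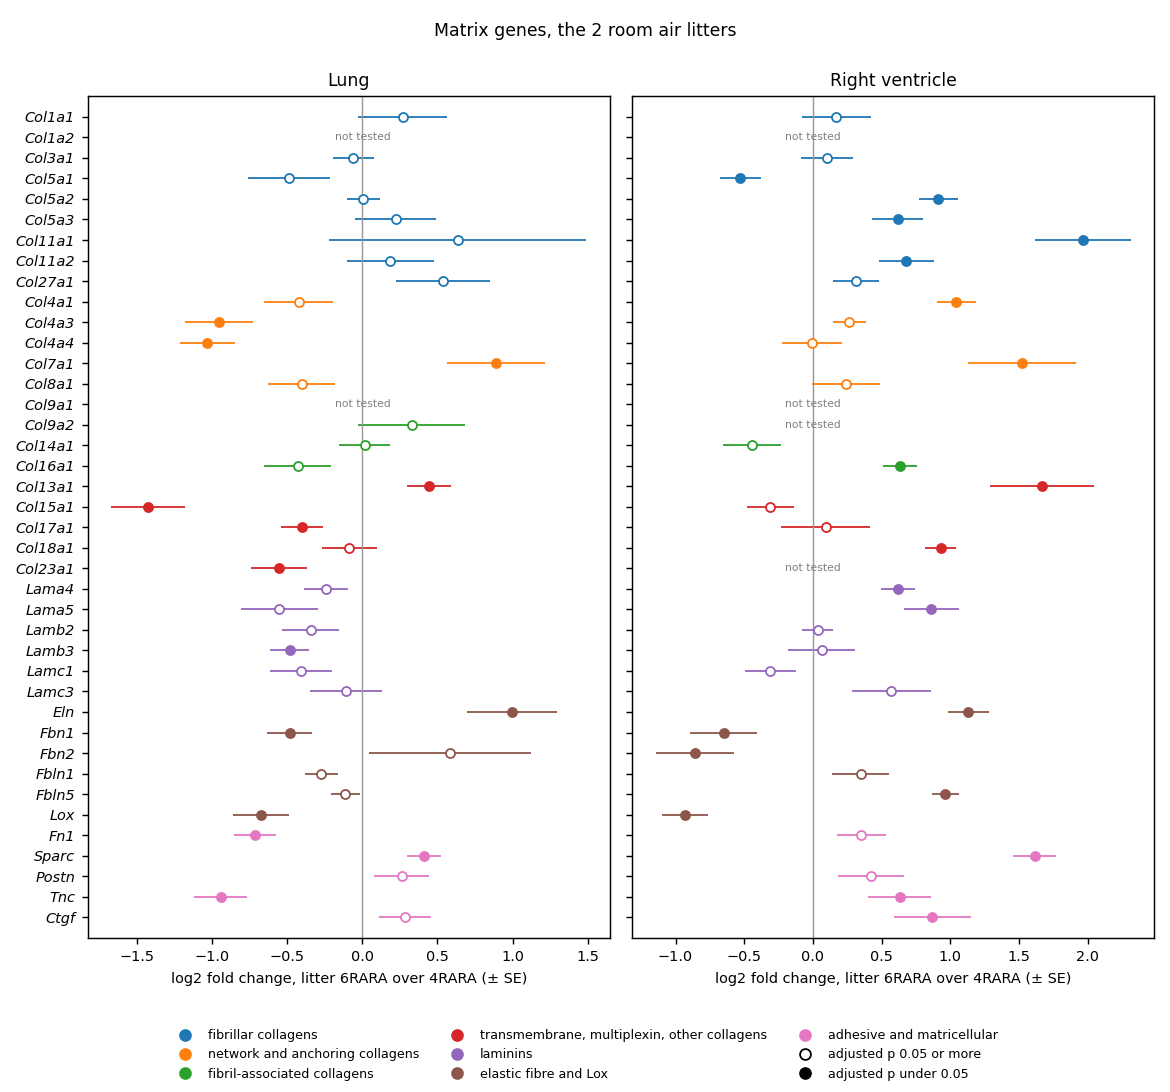
Points are log2 fold changes of room air litter 6RARA over 4RARA with SE bars (x axis) for each gene (y axis), lung left and right ventricle right, filled where the adjusted p was under 0.05. Sparc, Eln, Col7a1 and Col13a1 are filled on the right of 0 in both tissues, Lox and Fbn1 on the left in both, and Tnc on opposite sides.

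Called between the room air litters in both tissues were 7 members, of the 14 in lung and the 21 in right ventricle: Col7a1, Col13a1, Eln and Sparc higher in 6RARA in both, Fbn1 and Lox lower in both, and Tnc in opposite directions. The same animals gave both tissues, so these are not independent. Of all genes, 31.3% were called between these litters in lung and 64.6% in right ventricle. The share of all genes called in both was not counted, so the 7 are not read as particular to the matrix genes. All 11 cardiac muscle markers were lower in 6RARA right ventricles (summed level 22156 to 32990 CPM against 77219 to 99277), all 8 endothelial markers were higher, and all 10 lung epithelial markers were higher (305 to 2015 against 23.8 to 217 CPM). Litter, RNA quality and tissue content cannot be told apart here.

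Single animals also stood out in several members at once. Animal 4RARA39, a female, had the highest level of its litter in both tissues for 11 of 37 members (29.7%, against 13.6% of all genes): Col1a1, Col3a1, Col5a1, Col5a2, Col14a1, Lamc1, Fbn1, Fbln1, Fn1, Postn and Ctgf. Its Col1a1 was 1265 CPM in lung and 1645 in right ventricle, and its Col3a1 4496 and 5611 CPM, each above every littermate. Its right ventricle library had 6172411 counts, the lowest of its litter, and 49.5% mitochondrial reads. Animal 3HH21, a male at altitude, was highest of its litter in both tissues for 10 of 37 members (against 2.42% of all genes), among them Col1a1, Col3a1, Col4a1, Lama5, Eln and Lox. Both animals were picked out after their values were seen. Library 4HH37 of right ventricle had 14 of 37 members more than 1 log2 unit above their tissue median (8.96% of all genes). Its Lamb3 was 70.2, Col13a1 44.6, Col4a3 190 and Lox 50.9 CPM, beside its Sftpc of 5984 CPM. Its lung markers are above those of every other right ventricle library, and their part was not tested. Right ventricle 4HH38 had 14 of 37 members more than 1 log2 unit below their tissue median (3.89% of all genes). Lung 3HH27 had 16 of 39 members that low (5.22% of all genes). Both are altitude libraries and were kept in the fits without the libraries that stood apart.

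Of 134 listed genes that fold, cut, crosslink, bind or receive these proteins, 107 were tested in lung, of which 2 were higher and 1 lower at altitude, where 2.00% of all genes were called, with a median of 0.01 against 0.02 for all genes. Fkbp10, a collagen-folding isomerase of the endoplasmic reticulum, was higher (0.26 ± 0.07, adjusted p = 0.0436), from 47.1 through 54.9 to 64.9 CPM in room air and from 51.2 through 67.1 to 76.2 CPM at altitude. Mmp23, a membrane-anchored metalloproteinase, was higher (0.54 ± 0.13, adjusted p = 0.0154), from 6.14 through 8.94 to 11.4 CPM and from 9.16 through 12.2 to 25.2 CPM. Cyr61, the CCN family relative of Ctgf, was lower (−1.06 ± 0.29, adjusted p = 0.0468; 0.058 without the libraries that stood apart), from 24.3 through 81.9 to 301 CPM and from 21.8 through 41.6 to 94.7 CPM. Lists with none called had as their member of smallest p Tll1 (procollagen processing), Mfap2 (elastic fibre partners), Itga8 (receptors) and Smad7 (TGF-beta signalling), with adjusted p of 0.252, 0.135, 0.119 and 0.295. Without the libraries that stood apart 5 were higher and 1 lower in lung: Cyr61 lost its call, Fkbp10 and Mmp23 were called again, and Dpt, Itgb8, Timp3 and Itga8 (0.51, adjusted p = 0.00592) were added.

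In right ventricle 105 were tested, of which 2 were higher and 4 lower, where 3.04% of all genes were called, with a median of −0.06. Without the libraries that stood apart 1 was higher (Mmp23) and 1 lower (Smad3), with a median of 0.02. Mmp23 was higher here too (0.33 ± 0.09, adjusted p = 0.0415), from 9.56 through 10.4 to 15.3 CPM in room air and from 12.1 through 14.2 to 19.3 CPM at altitude, and kept its call without the libraries that stood apart (0.45, adjusted p = 0.0343). The lung and right ventricle samples came from the same animals. Ddr1, a collagen receptor kinase, was higher (0.91 ± 0.23, adjusted p = 0.0338). Adamts4, an aggrecanase (−1.22 ± 0.34), Sparcl1, the SPARC relative hevin (−0.88 ± 0.22), Smoc1, a SPARC family member of basement membranes (−0.87 ± 0.23) and Ltbp1, which holds latent TGF-beta in the matrix (−0.57 ± 0.15), were lower, with adjusted p of 0.049, 0.0327, 0.0399 and 0.0415. Each of these 5 lost its call without the libraries that stood apart, at adjusted p of 0.224 to 0.696. In the lists with none called the smallest p belonged to Plod1 (folding), Tll1 and Smad7, with adjusted p of 0.125, 0.054 and 0.066.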

How the data were processed

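The authors deposited raw read counts per gene for each tissue; STAR 2.5, featureCounts 1.5.1 and edgeR are named in the submitters' processing notes, and alignment was to rn6 per the labels. The strand setting and the gene filter are not given in the sources used here, so antisense reads cannot be told apart. The deposited log2 RPKM values were not used. The authors' log2 fold changes and their p-value and FDR columns are printed only as the authors' deposited table. Members and gene lists were chosen with earlier results of these data known.

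Counts were tested in R 4.3.3 with edgeR 4.0.16 (filterByExpr, minimum count 10 and minimum total 15, TMM, robust quasi-likelihood fit, sex as covariate, Benjamini-Hochberg adjustment over all genes, called under 0.05). Alternatives used DESeq2 1.42.0 and limma 3.58.1 (voom, litter as random effect). CPM are TMM-scaled within a tissue, and levels per kilobase over all 54 libraries. On simulated data, 100% (lung) and 99.5% (right ventricle) of 200 genes changed by 1 on the log2 scale were recovered, over 12248 and 11480 genes. Of the calls, 6.1% and 4.8% were genes not changed. The simulated libraries were independent, with a single dispersion of 0.05 and no litter differences, and the changed genes had a mean above 1 CPM. The recovery therefore does not give the power of the comparisons of the real libraries.

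Both tissues came from the same animal for 25 animals by the labels; same-animal deviations correlated at a mean r of 0.25, lowest −0.21, with 23 pairs over 0.1. Named with values were: members called at altitude or in the interaction; the member with the highest level per length in each role; Col1a1, Col1a2, Col3a1, Col4a1, Eln, Lox, Fbn1, Fn1, Sparc, Postn, Tnc and Ctgf; up to 4 called members per direction by smallest p in the litter and tissue comparisons; and of each pathway list up to 3 called genes or the one of smallest p. Col4a2 was named in that rule but not analysed here. Of the members, 1 entered every count and median but is not reported by name or drawn in the plots.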

Additional observations from a re-analysis of the deposited data

Results flagged for a closer look

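Within each tissue and litter (4 to 8 libraries), the highest and lowest CPM of 11 named genes were examined for a gap to the other libraries that is large against the litter's range. Of 88 such groups 15 were flagged; chance flags about 1 in 20 groups, and libraries of 1 animal are not independent. Of the 15, 8 belonged to animal 4RARA39. In its lung, Col1a1 was 1265 CPM (littermates 635 to 887), Col3a1 4496 (2554 to 3298) and Fbn1 432 (241 to 304). In its right ventricle, Col1a1 was 1645 CPM (596 to 830), Col3a1 5611 (2632 to 3301), Fbn1 406 (162 to 232), Sparc 5150 (3096 to 3743) and Postn 184 (64.6 to 107).

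Right ventricle 4HH37 had 3 flags, Eln at 1091 CPM (188 to 380), Lox at 50.9 (11.7 to 17.6) and Tnc at 49.1 (1.68 to 10.7). The others were Eln in right ventricle 3HH21 at 590 CPM (164 to 362), Col4a1 in lung 4HH39 at 118 (2210 to 3038), Sparc in lung 6RARA68 at 9709 (6380 to 7664) and Postn in lung 4HH36 at 937 (473 to 629).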

How the results depend on the processing

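The number of members called moved as follows. In lung at altitude it was 0 with all libraries, 2 without the libraries that stood apart (Fbln5 and Col9a2), 1 with DESeq2, 1 without sex in the model, and 0 to 2 when each litter was left out in turn. Of all genes, 3.71% were called without the libraries that stood apart, 3.76% with DESeq2 and 306 of 12115 without sex. Leaving out 4RARA, the fit with 2 members, called 10.0% of all genes. In right ventricle at altitude the number of members called was 1, became 4 with DESeq2, 2 without animal 4HH37 and 3 without animal 4RARA39 (both chosen after seeing the data), 0 to 15 when each litter was left out, and 0 without the libraries that stood apart, with litter as a random effect, with counts summed over litters, with RIN and with batch number. Of all genes, 7.39% were called with DESeq2, 531 of 11254 without 4HH37 and 491 of 11326 without 4RARA39. The fit with 15 members, without 4RARA, called 55.6% of all genes. The tissue by treatment interaction gave 0, 0 to 4 when each litter was left out, 1 with DESeq2, 0 with the animal as a replicate block and 1 (Sparc) in the same animals with no replicate block. The 4 came without 4RARA, where 3482 of 11835 genes were called. DESeq2 called 221 of 11744 genes, the replicate block 114 of 11718 and the same animals without it 133 of 11718. The replicate block gave 34 members against 33 between tissues in room air, where 8445 of 11552 and 7821 of 11622 genes were called. Counts for the sexes, litters and tissues stayed within 1.5 times of the full value in every alternative run.

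Ctgf in right ventricle was negative in all 15 alternatives and kept its call in 7; 1 of 42 values of called members lost its call in the room air litter comparison in lung (Col17a1), and none reversed. Genes with few counts (Col9a2, Col11a1, Fbn2, Col1a2) are limited by depth; the causes of these shifts were not tested.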
